A study of Homo sapiens with 10 samples.

Results

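The 9 genes described here build and load MHC class I, the cell surface complex that shows peptides from inside the cell to CD8+ T cells. They were chosen by name, as class I heavy chains, the light chain and the peptide loading machinery, and each of the 9 was present among the 13920 genes of the table. RNA was sequenced from spheroids of cells labelled T47D, a human breast cancer line, as WT and as the SAMHD1 knock-out clones A1 and A2, each of which was 1 clone made with CRISPR-Cas9. WT and clone A1 had 1 library each in experiments 10, 11, 15 and 16, and clone A2 had 1 library each in experiments 15 and 16, and the labels name no treatment. The comparisons ask whether clones edited in SAMHD1, which encodes a dNTP-degrading enzyme tied to innate immune signalling, differ from WT in these genes within the same experiments.

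Class I molecules are assembled in the endoplasmic reticulum from a polymorphic heavy chain and the invariant light chain B2M. Peptides cut by the proteasome enter through the TAP transporter, are trimmed by aminopeptidases such as ERAP1 and are placed in the groove with the help of tapasin. Interferons and the transactivator NLRC5 raise the transcription of these genes together through shared promoter elements, and tumour cells often carry less class I than the tissue they came from.

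The 3 promoters below belong to HLA-B, which was called against WT in clone A2, to its neighbour HLA-C, and to the light chain B2M. Both heavy chains need B2M. They are RefSeq reference windows of GRCh38.p14, from 250 bases before to 50 bases after the start of each gene on its own strand, and were not read from these cells. Capitals mark CCAAT (the box that NF-Y binds), TGACG (the core of a cyclic AMP response element) and GAAA followed by any 2 bases and a second GAAA (the letters of an interferon response element, called the GAAA repeat here) on either strand, so that the other strand of CCAAT reads ATTGG and overlapping matches run together.
HLA-B promoter, chr6:31357130-31357429, minus strand: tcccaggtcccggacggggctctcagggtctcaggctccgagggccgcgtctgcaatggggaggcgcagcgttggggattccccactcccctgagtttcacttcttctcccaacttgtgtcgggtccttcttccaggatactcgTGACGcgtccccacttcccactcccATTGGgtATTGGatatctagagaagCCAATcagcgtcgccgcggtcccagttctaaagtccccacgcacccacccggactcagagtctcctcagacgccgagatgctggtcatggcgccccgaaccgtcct
HLA-C promoter, chr6:31272043-31272342, minus strand: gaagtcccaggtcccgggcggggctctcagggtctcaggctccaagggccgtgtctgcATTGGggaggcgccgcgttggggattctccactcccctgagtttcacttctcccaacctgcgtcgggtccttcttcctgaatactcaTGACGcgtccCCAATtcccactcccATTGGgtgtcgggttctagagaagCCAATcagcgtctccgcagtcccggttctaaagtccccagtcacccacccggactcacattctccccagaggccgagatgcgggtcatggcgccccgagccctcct
B2M promoter, chr15:44711267-44711566, plus strand: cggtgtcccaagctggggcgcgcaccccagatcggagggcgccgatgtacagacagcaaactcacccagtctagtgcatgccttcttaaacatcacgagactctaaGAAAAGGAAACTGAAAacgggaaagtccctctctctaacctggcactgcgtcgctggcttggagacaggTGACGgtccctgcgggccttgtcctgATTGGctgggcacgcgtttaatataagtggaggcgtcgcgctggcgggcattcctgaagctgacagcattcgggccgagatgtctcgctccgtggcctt
The HLA-B and HLA-C windows were identical at 269 of 304 aligned columns (88.5%), and the HLA-B and B2M windows at 177 of 358 (49.4%). In the HLA-B window the TGACG match began at base −106 from the start and the last CCAAT at −56, in the HLA-C window at −105 and −56, and in the B2M window TGACG began at −75 and the CCAAT match on the other strand at −49. Of the 9 members, 7 had a window in the RefSeq table, all but HLA-E and NLRC5. The ERAP1 window (chr5:96807896-96808195) lies within the span given for the gene below and not at its outer end, since it belongs to a start of ERAP1 inside that span. CCAAT was found in 5 of the 7 windows and in 35.7% of all 27305 windows, TGACG in 4 of 7 and 25.0%, and the GAAA repeat in 5 of 7 and 3.65%. The 5 windows with the repeat were those of B2M, TAP1, TAP2, TAPBP and ERAP1. The windows of HLA-B and HLA-C held no match to these letters with exactly this spacing. GGGCGG, the GC box, was found in 4 of 7 windows and 44.6% of all, and TATAAA in 1 of 7 (TAP2) and 12.0%.

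The libraries held 40077369 to 51311482 counted reads, and each of the 45 library pairs differed by more than counting noise (lowest chi-square per degree of freedom over genes 6.74). By this measure 3 libraries were farther from the other library of their own group and pair of experiments than from libraries of other groups. WT of experiments 10 and 11 were at 25.1 from each other, whereas WT of experiment 10 was at 10.1 and 8.51 from clone A1 of experiments 10 and 11, and WT of experiment 11 at 22.5 from clone A1 of experiment 11. Clone A1 of experiment 16 was at 25.2 from clone A1 of experiment 15, at 19.7 and 20.8 from clone A2 and at 24.6 and 21.8 from WT of experiments 15 and 16. SAMHD1 itself, the targeted gene, stood at 49.8 to 56.4 CPM (read counts scaled to library size and between libraries by the TMM method of edgeR) in WT, 22.5 and 23.0 in clone A1 of experiments 10 and 11, 6.44 and 6.15 in clone A1 of experiments 15 and 16, and 23.6 and 20.2 in clone A2. The libraries labelled A1 thus held different amounts of SAMHD1 RNA in the 2 pairs of experiments (log2 difference of the A1 effects −1.81, edgeR adjusted p = 1.2e-06). Of 9 markers of luminal breast epithelium, 8 were listed, but ESR1 (0.183 to 1.59 CPM), CDH1 (0.684 to 2.16 CPM) and EPCAM (0.348 to 1.78 CPM) were close to absent and KRT8 was at 3.10 to 9.07 CPM. The other 4 were expressed in every library, KRT18 at 36.3 to 60.3 CPM, PGR at 15.4 to 20.7, GATA3 at 15.4 to 24.8 and FOXA1 at 14.1 to 26.8. Clone A2 lay below WT for KRT8 (3.10 to 4.37 against 6.86 to 9.07 CPM) and KRT18 (37.97 to 39.63 against 42.9 to 60.3). The same held for GATA3 (15.4 to 19.5 against 20.6 to 24.8), whereas FOXA1 lay above WT (23.5 to 24.2 against 14.1 to 19.4). For ESR1, PGR, CDH1 and EPCAM, clone A2 and WT overlapped. VIM, an intermediate filament gene of mesenchymal cells that was looked up after these values were seen, was at 1175 to 1518 CPM. KRT19, the ninth marker, was not among the listed genes. The low or unlisted markers and the high VIM go against the label T47D, a luminal line. Whether the cells were T47D was not tested, and they are named here by their labels alone. Of 16 leukocyte markers, whose cells carry much class I, 4 were listed, with a summed level of 3.11 to 4.14 CPM over the 10 libraries, and PTPRC was not among the listed genes. Of 8 fibroblast markers only COL1A1 and COL3A1 were listed, with sums of 18.8 to 26.3 CPM in WT, 11.7 to 18.6 in clone A1 and 12.0 to 13.1 in clone A2. The lower sum in clone A2 came from COL3A1 alone, at 1.66 to 2.38 CPM against 8.46 to 17.9 in WT. COL1A1 overlapped, at 9.66 to 11.4 CPM in clone A2 and 7.94 to 11.04 in WT. The part of these markers in the differences below was not tested. The libraries of a group come from different experiments and are biological replicates by the methods of the study, but each clone is 1 clone, so p-values measure the spread between experiments and not between clones.

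Per kilobase of the canonical transcript, the members spanned a wide range and kept 1 order in every library. HLA-C had the highest mean level over the 10 libraries (145 CPM per kb), followed by B2M (116), HLA-B (76.2), HLA-E (28.4), TAPBP (14.1), TAP1 (12.1), TAP2 (7.2), ERAP1 (3.04) and NLRC5 (0.212). Each of the 8 neighbouring pairs in this order had the same order in 10 of 10 libraries. The closest pairs were HLA-C with B2M and B2M with HLA-B, where the higher gene was 1.08 times the lower in the closest library, and TAPBP with TAP1, at 1.05 times. The heavy chains share long stretches of sequence with one another and with other class I genes, and the reference alleles may differ from those of the line, so that the split of reads between HLA-B and HLA-C is uncertain.

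**Figure D1:**
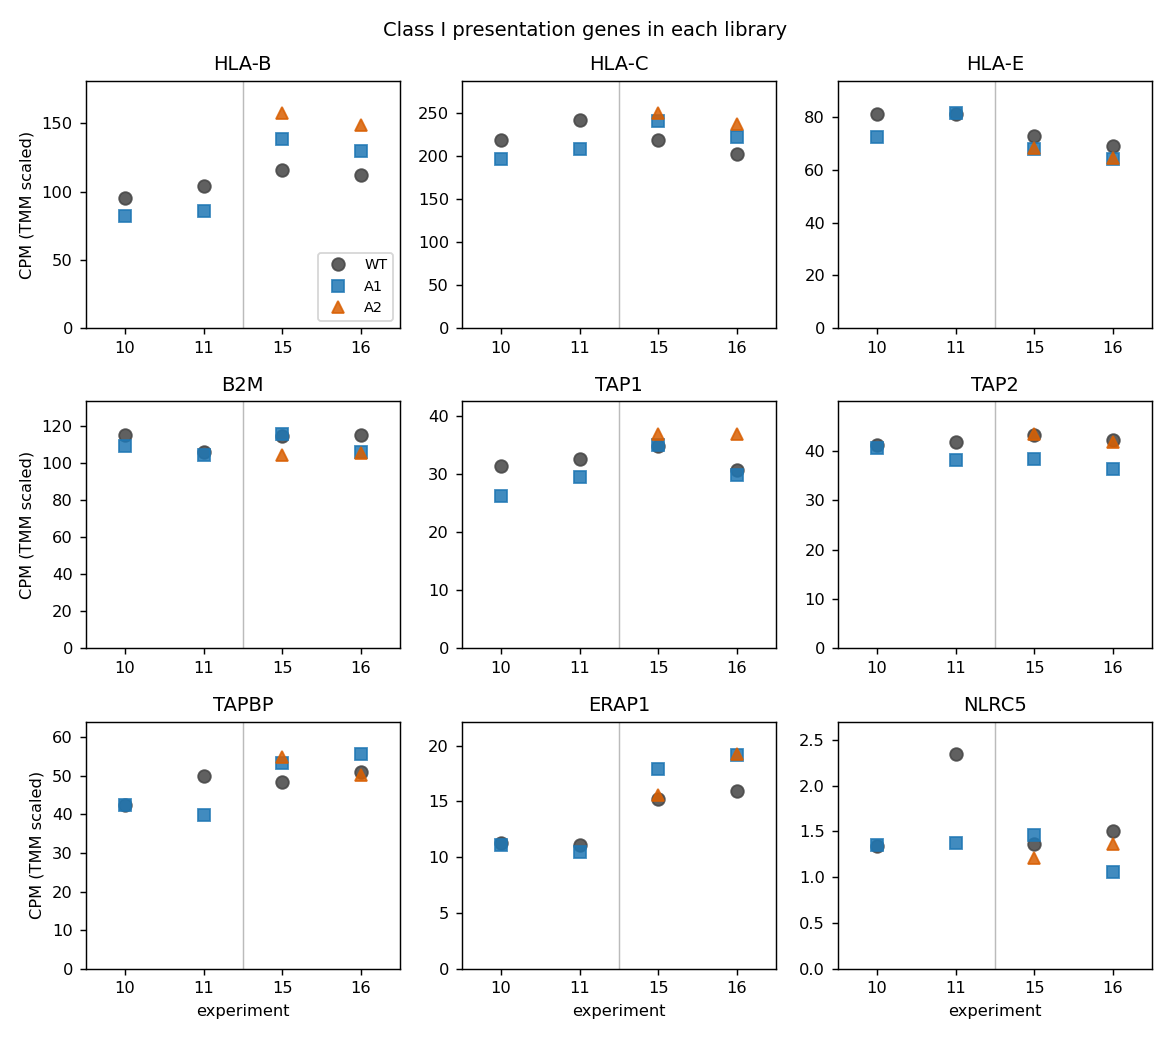
Level of each of the 9 genes in CPM (TMM scaled, linear axis from 0) by experiment number, with 1 symbol per library (circle WT, square clone A1, triangle clone A2). The vertical line separates experiments 10 and 11 from 15 and 16. For HLA-B the clone A1 squares lie below the WT circles in experiments 10 and 11 and above them in 15 and 16, where the clone A2 triangles are highest at 157 and 149 CPM.

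HLA-B, a classical heavy chain on the minus strand of chromosome 6 (31353875 to 31357179, 8 exons), gave 1 called difference from WT, that of clone A2. In experiments 10 and 11 its level was 95.3 and 104 CPM in WT and 82.4 and 86.1 CPM in clone A1. In experiments 15 and 16 it was 116 and 112 CPM in WT, 139 and 129.8 CPM in clone A1 and 157 and 149 CPM in clone A2. The groups did not overlap within either pair of experiments, with clone A1 below WT in the first pair, and in the second pair WT lowest, clone A1 between and clone A2 highest. Here and below, separation of groups describes the values and carries no test. The share of all genes separated in this way was not counted. Against WT of experiments 15 and 16, HLA-B rose in clone A2 by 0.42 ± 0.07 on the log2 scale (SE, n = 2 against 2, as for each value after ± below), which is 34.2% higher, with a 95% interval of 0.28 to 0.57 and an edgeR adjusted p of 0.000641. In a bulk sample, a change in the number of cells of a type and a change in RNA per cell cannot be told apart. This call was kept with every tool, setting and left-out library run, at log2 differences of 0.38 to 0.47 and adjusted p of 7.65e-07 to 0.0144.

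For HLA-B in clone A1, the difference from WT passed in neither pair of experiments in the fit over the 10 libraries without a block. With the experiment number as a block it passed in both, at −0.24 (edgeR adjusted p = 0.0165) and 0.23 (0.00363). Without the block, the difference from WT was −0.24 ± 0.07 in experiments 10 and 11 (interval −0.40 to −0.09, edgeR adjusted p = 0.282). In experiments 15 and 16 it was 0.24 ± 0.07 (0.09 to 0.39, edgeR adjusted p = 0.0508). The second value passed with DESeq2 (adjusted p = 0.0242), with experiments 15 and 16 fitted alone (edgeR, 0.0211), without WT of experiment 10 (0.0127) and without WT of experiment 11 (0.0125), and the first without WT of experiment 10 (−0.31, edgeR adjusted p = 0.0163) but not without WT of experiment 11 (−0.18). The change of the A1 effect between the 2 pairs was itself 0.48 ± 0.10 (interval 0.27 to 0.69), with an edgeR adjusted p of 0.0182. Within each experiment, clone A1 stood at −0.21 and −0.28 (log2 CPM against WT of the same experiment) in experiments 10 and 11 and at 0.26 and 0.21 in 15 and 16. The call on the change was lost without WT of experiment 15 (0.51, edgeR adjusted p = 0.0527), WT of experiment 16 (0.45, 0.1), clone A1 of experiment 10 (0.45, 0.133), clone A1 of experiment 11 (0.51, 0.0555) or clone A1 of experiment 15 (0.43, 0.104). Clone A2 was 0.19 ± 0.07 above clone A1 in experiments 15 and 16 (interval 0.04 to 0.34, edgeR adjusted p = 0.177), which passed with the block (0.19, 0.0271). These comparisons share the WT or clone A1 libraries of experiments 15 and 16 and are not independent. WT alone moved by 0.19 between the pairs (edgeR adjusted p = 0.0773), and this was 0.26 without WT of experiment 11, which passed (adjusted p = 0.03), and 0.12 without WT of experiment 10, which did not.

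HLA-C, the second classical heavy chain among the members (chromosome 6, 31268749 to 31272092, minus strand), had the same sign as HLA-B against WT in each comparison, with values closer to 0. Its level was 219 and 242 CPM in WT and 197 and 209 CPM in clone A1 of experiments 10 and 11. The later pair gave 219 and 203 CPM in WT, 241 and 222 CPM in clone A1 and 250.2 and 238 CPM in clone A2. Clone A1 lay below WT in the first pair and above the WT library of its own experiment in the second, and both clone A2 libraries lay above both WT libraries. None of the differences passed the edgeR test without a block. With the experiment number as a block, the clone A2 difference (0.21, edgeR adjusted p = 0.00329) and the change of the A1 effect (0.32, 0.0064) passed. Without the block, clone A1 differed by −0.18 ± 0.07 in experiments 10 and 11 (edgeR adjusted p = 0.408) and by 0.13 ± 0.07 in 15 and 16 (0.297). Clone A2 differed by 0.21 ± 0.07 (interval 0.06 to 0.36, 0.0592). The clone A2 value passed with DESeq2 (adjusted p = 0.041), without WT of experiment 10 (edgeR, 0.0187), without WT of experiment 11 (0.0168), and with experiments 15 and 16 fitted alone (0.0273), each at 0.21. The change of the A1 effect was 0.32 ± 0.10 (edgeR adjusted p = 0.122) and passed without WT of experiment 10 (0.39, 0.0168), as did the A1 difference of experiments 10 and 11 (−0.26, 0.0347) and the difference between WT of the 2 pairs (−0.21, 0.0472), which was −0.13 ± 0.07 over all libraries (0.242). Without WT of experiment 11 these 3 values were 0.24, −0.11 and −0.052, and none passed.

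HLA-E, a nonclassical heavy chain that presents leader peptides of other class I chains to NK cell receptors, gave no called difference (chromosome 6, 30489509 to 30494194, plus strand). It stood at 81.1 and 81.2 CPM in WT and 72.6 and 81.6 CPM in clone A1 of experiments 10 and 11. In experiments 15 and 16 it was 73.0 and 69.3 CPM in WT, 68.2 and 64.3 CPM in clone A1 and 68.4 and 64.5 CPM in clone A2. Each of the 6 libraries of experiments 15 and 16 held no more than 73.0 CPM, and 3 of the 4 libraries of experiments 10 and 11 held at least 81.1 CPM, with clone A1 of experiment 10 at 72.6 CPM. Clones A1 and A2 each differed from WT of experiments 15 and 16 by −0.10 ± 0.07 (interval −0.26 to 0.06 for both, edgeR adjusted p = 0.463 and 0.413). In WT the 2 pairs of experiments differed by −0.19 ± 0.07 (edgeR adjusted p = 0.0895).

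B2M, the light chain (chromosome 15, 44711517 to 44718145, plus strand), varied least among the members. It lay at 115, 106, 115 and 115 CPM in WT, 109.0, 104, 116 and 106 CPM in clone A1 (experiments 10, 11, 15 and 16 in that order) and 104 and 106 CPM in clone A2. WT and clone A1 overlapped in both pairs, and both clone A2 libraries lay below the other 4 libraries of experiments 15 and 16. The spread of its 10 log2 CPM values around their mean was 0.0628 (root mean square), the smallest among the 9 members, against 0.307 for HLA-B and 0.111 for HLA-C. Differences from WT were −0.05 ± 0.07 in clone A1 in both pairs and −0.13 ± 0.07 in clone A2 (interval −0.28 to 0.02, edgeR adjusted p = 0.23). The intervals of clone A1 reached from −0.20 to 0.10 in both pairs.

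**Figure D2:**
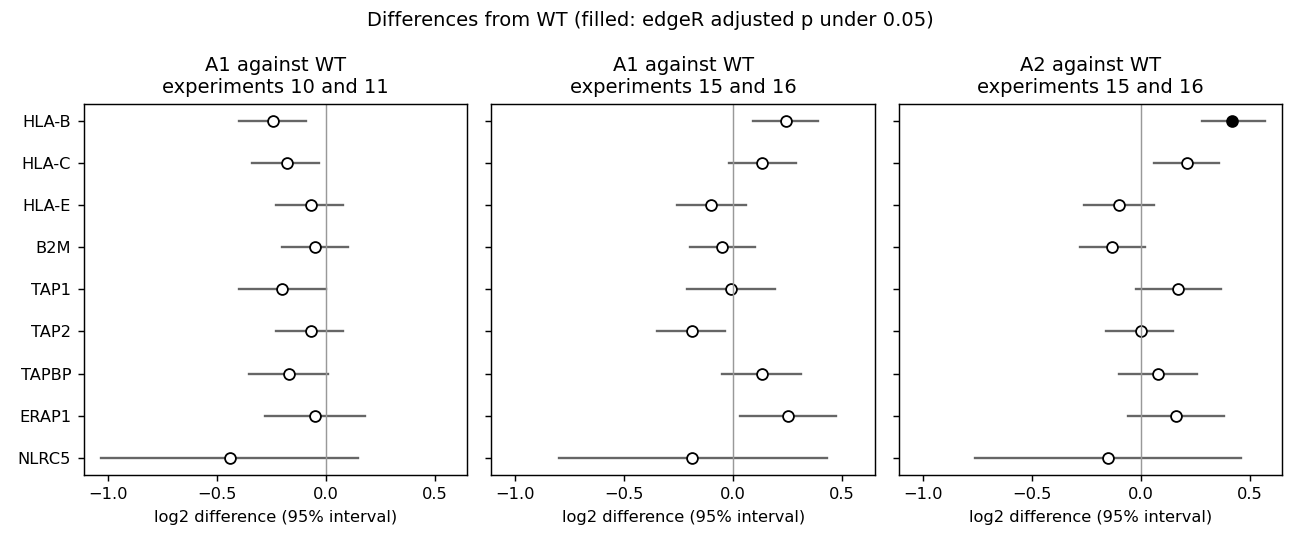
Log2 difference from WT of each gene (point) with its 95% interval (line) for clone A1 in experiments 10 and 11, clone A1 in 15 and 16 and clone A2 in 15 and 16. A filled point marks an edgeR adjusted p under 0.05, which only HLA-B in clone A2 reached, at 0.42.

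TAP1 and TAP2 are the 2 chains of the peptide transporter, encoded close to each other in the class II region of chromosome 6 (32845209 to 32853704 and 32821831 to 32838739, both on the minus strand). TAP1 was at 31.4 and 32.6 CPM in WT and 26.3 and 29.5 CPM in clone A1 of experiments 10 and 11. The values of experiments 15 and 16 were 34.9 and 30.7 CPM in WT, 35.1 and 29.9 CPM in clone A1 and 36.9 and 37.0 CPM in clone A2. Clone A1 and WT overlapped in the second pair, and clone A2 was above all other libraries. The differences of TAP1 from WT were −0.20 ± 0.09 (edgeR adjusted p = 0.476) and −0.01 ± 0.09 (0.963) in clone A1 and 0.17 ± 0.09 (interval −0.02 to 0.37, 0.235) in clone A2.
TAP2 was at 41.1 and 41.8 CPM in WT and 40.6 and 38.2 CPM in clone A1 of experiments 10 and 11. Its level in experiments 15 and 16 was 43.1 and 42.1 CPM in WT, 38.3 and 36.2 CPM in clone A1 and 43.4 and 41.7 CPM in clone A2. Here clone A1 was the lower group in both pairs, and clone A2 overlapped WT. TAP2 differed in clone A1 by −0.07 ± 0.07 and −0.19 ± 0.07 (edgeR adjusted p = 0.705 and 0.126) and stood 0.19 ± 0.07 higher in clone A2 than in clone A1 (0.198). With the experiment number as a block, the clone A1 difference of experiments 15 and 16 passed (−0.19, edgeR adjusted p = 0.0447).
Reads of TAP1 per read of TAP2 ranged from 0.728 to 0.811 in WT, from 0.648 to 0.917 in clone A1 and from 0.850 to 0.887 in clone A2.

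TAPBP, which encodes tapasin, the protein that bridges TAP and the empty heavy chain (chromosome 6, 33299694 to 33314078, minus strand), gave no called difference. Its level was 42.4 and 50.02 CPM in WT and 42.3 and 39.8 CPM in clone A1 of experiments 10 and 11, and 48.3 and 50.95 CPM in WT, 53.2 and 55.6 CPM in clone A1 and 54.8 and 50.2 CPM in clone A2 of experiments 15 and 16. Clone A1 lay above WT in the second pair, and clone A2 overlapped WT. The differences of TAPBP were −0.17 ± 0.09 and 0.13 ± 0.09 in clone A1 (edgeR adjusted p = 0.482 and 0.402) and 0.08 ± 0.09 in clone A2 (0.587). Without WT of experiment 10 the first passed (−0.29, edgeR adjusted p = 0.0362), and so did the change of the A1 effect (0.42, 0.0218), which was 0.30 ± 0.12 over all libraries (0.228). Without WT of experiment 11 the same values were −0.047 and 0.18, and neither passed. TAPBP overlaps RGL2, whose own differences passed in no comparison.

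ERAP1, the aminopeptidase that trims peptides in the endoplasmic reticulum, differed between the pairs of experiments in WT (chromosome 5, 96760813 to 96935854, minus strand). It was at 11.3 and 11.1 CPM in WT and 11.1 and 10.5 CPM in clone A1 of experiments 10 and 11. It was at 15.2 and 15.9 CPM in WT, 17.9 and 19.2 CPM in clone A1 and 15.6 and 19.3 CPM in clone A2 of experiments 15 and 16. Each of the 6 libraries of the second pair lay above each of the 4 of the first. In WT, ERAP1 rose by 0.48 ± 0.11 (39.6% higher, interval 0.25 to 0.71, edgeR adjusted p = 0.00701), and without WT of experiment 16 this did not pass (0.45, 0.0664). Against WT of their own experiments, the clones differed by −0.05 ± 0.11, 0.25 ± 0.11 (clone A1, edgeR adjusted p = 0.866 and 0.166) and 0.16 ± 0.11 (clone A2, 0.337). ERAP1 overlaps CAST and ERAP2 on the other strand, and the strand setting of the read counting is not given in the sources used here, so reads of these genes may not be separated. ERAP2, a second trimming aminopeptidase, rose by 0.43 ± 0.14 in WT between the pairs (edgeR adjusted p = 0.0496), and CAST, the calpain inhibitor, rose in clones A1 and A2 of experiments 15 and 16 by 0.34 ± 0.08 and 0.31 ± 0.08 (0.0133 and 0.0117).

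NLRC5, the class I transactivator, was the lowest member, with 46 to 115 reads per library (chromosome 16, 56989557 to 57083520, plus strand). It was at 1.34, 2.35, 1.36 and 1.501 CPM in WT, 1.35, 1.37, 1.46 and 1.06 CPM in clone A1 and 1.21 and 1.37 CPM in clone A2. Apart from WT of experiment 11, the groups overlapped. The differences from WT were −0.44 ± 0.28, −0.19 ± 0.29 and −0.15 ± 0.29 (edgeR adjusted p = 0.559, 0.772 and 0.779). Their intervals reached from −1.03 to 0.46 in all, so that a change of the size seen for HLA-B could be missed. Without WT of experiment 11 the first difference was 0.015. The part of read depth in the width of the intervals was not tested.

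Counted over the members, 0 of 9 passed the edgeR test in clone A1 of experiments 10 and 11, where 0.194% of all genes passed. At an unadjusted p under 0.05 there were 2, beside 10.6% of all genes, and DESeq2 and limma-trend also called 0. The 9 differences were all below 0 in this comparison, with a median of −0.17 beside −0.0004 over all genes, and within experiment 10 clone A1 was lower for 8 of 9, though TAPBP was at 42.27 CPM against 42.38 in WT, and within experiment 11 also for 8 of 9. In clone A1 of experiments 15 and 16, 0 of 9 passed (3 at an unadjusted p under 0.05, beside 22.5% of all genes, 1 with DESeq2, 0 with limma-trend), with 8.24% of all genes called. There 4 members were above and 5 below WT, with a median of −0.01 beside 0.0031. With the experiment number as a block, 1 member was called for clone A1 in experiments 10 and 11 and 2 in 15 and 16. The same fit called 382 and 2411 of all genes.
In clone A2, 1 of 9 passed, which was HLA-B, with 16.4% of all genes called. The signs were 5 above and 4 below WT, with a median of 0.08 beside 0.0071. Between clones A2 and A1, 0 of 9 passed (2 at an unadjusted p under 0.05, beside 16.2% of all genes, 0 with DESeq2 and 0 with limma-trend), with 4.14% of all genes called. For the change of the A1 effect, 1 of 9 passed, again HLA-B, with 2.5% of all genes called, and the median was 0.26 beside −0.0027. Between WT of the 2 pairs, 1 of 9 passed, ERAP1, with 16.4% of all genes called.

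**Figure D3:**
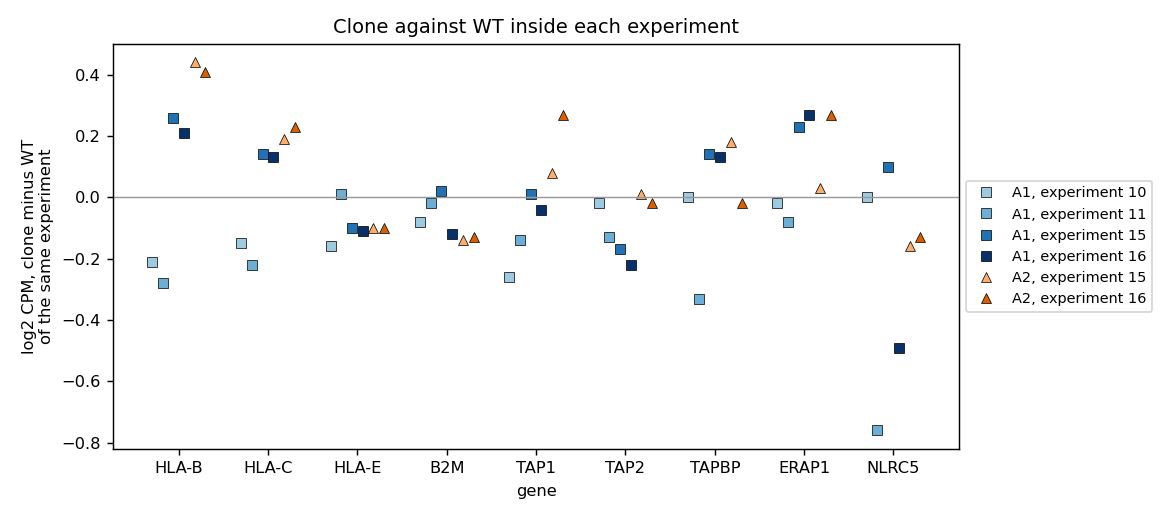
Log2 CPM of each clone library minus the WT library of the same experiment, for each of the 9 genes, with squares for clone A1 and triangles for clone A2 and a darker shade for a later experiment. HLA-B and HLA-C lie below 0 in experiments 10 and 11 and above 0 in 15 and 16, and NLRC5 has the widest spread, from −0.76 to 0.10.

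Ratios of read counts within a library do not depend on the scaling between libraries. They were chosen after the values had been seen and carry no test. HLA-B per HLA-C was 0.436 and 0.431 in WT and 0.418 and 0.413 in clone A1 of experiments 10 and 11, and 0.529 and 0.552 in WT, 0.576 and 0.584 in clone A1 and 0.629 and 0.625 in clone A2 of experiments 15 and 16. The ratio thus separated the pairs of experiments in WT as well as the 3 groups within experiments 15 and 16. HLA-B per B2M followed the same order, from 1.01 and 0.971 in WT through 1.2 and 1.22 in clone A1 to 1.51 and 1.41 in clone A2 of experiments 15 and 16. In experiments 10 and 11 it was 0.828 and 0.987 in WT and 0.756 and 0.826 in clone A1. HLA-C per B2M ranged from 1.76 to 2.29 in WT and from 1.81 to 2.1 in clone A1 over all their experiments, and within experiments 15 and 16 it was 1.91 and 1.76 in WT, 2.08 and 2.1 in clone A1 and 2.4 and 2.25 in clone A2, with no overlap between the 3 groups.

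**Figure D4:**
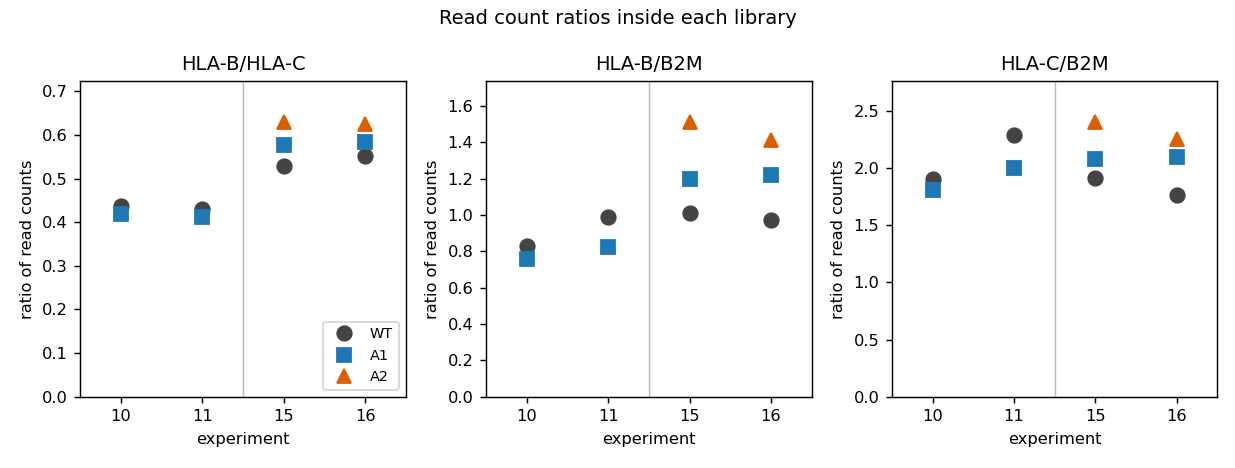
Ratio of read counts within each library (linear axes from 0) for HLA-B to HLA-C, HLA-B to B2M and HLA-C to B2M, by experiment, with circles for WT, squares for clone A1 and triangles for clone A2. In experiments 15 and 16 the ratio of HLA-B to HLA-C was lowest in WT (0.529 and 0.552) and highest in clone A2 (0.629 and 0.625).

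Genes around the members were compared over 5 Mb to each side, without the members and the pathway lists. Around HLA-B, the median difference of 154 neighbours was −0.06 in clone A1 of experiments 10 and 11, −0.04 in clone A1 of 15 and 16 and 0.01 in clone A2, beside −0.24, 0.24 and 0.42 for HLA-B itself. Of these neighbours, 13 were called in clone A2, beside 16.4% of all genes. Around ERAP1 the 17 neighbours had a median of 0.23 between WT of the pairs, beside 0.48 for ERAP1, and 5 were called, where 16.4% of all genes were. B2M, on another chromosome, had 100 neighbours with medians of 0.01 and −0.02 in clone A1 of the 2 pairs.

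Likeness of pattern was measured over the 10 libraries as a root mean square distance between log2 CPM values, with each gene centred on its own mean. Among the genes closest to HLA-C were ITM2C (0.042) and TUBB2A (0.044). HLA-B was closest to ALG1 (0.044), FBXL19 (0.045) and MRPS2 (0.046), ERAP1 to CEP44, NEK1 and ZGRF1 (0.059 to 0.07), all 3 on chromosome 4, and NLRC5 to CHRNA10 (0.13). The closest genes of HLA-E were TCF19, MEX3B and INTS15, those of B2M AARSD1, FKBP1A and PRXL2A, those of TAP1 CBARP, MIEF2 and MTX1, those of TAP2 RSAD1, DCPS and MRPL2, and those of TAPBP MGAT4B, UNC93B1 and CD81, at 0.027 to 0.063.

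The rest of the pathway was described with 7 lists, of which 81 genes were listed. In clone A1 of experiments 10 and 11, edgeR called 0 of the 81 beside 0.194% of all genes (17 at an unadjusted p under 0.05 beside 10.6% of all genes, 0 with DESeq2 and 0 with limma-trend). In experiments 15 and 16 it called 3 in clone A1, all lower, and 11 in clone A2, of which 10 were lower, beside 8.24% and 16.4% of all genes. The medians of the 7 lists ran from −0.47 (class II) to 0.10 in clone A1 of experiments 10 and 11, from −0.24 (class II) to 0.04 in clone A1 of 15 and 16 and from −0.14 to 0.07 in clone A2. Among other class I and class I-like genes, 14 of 22 were listed. PROCR, the endothelial protein C receptor with a class I-like fold, fell by 0.85 on the log2 scale in clone A1 of experiments 15 and 16 (edgeR adjusted p = 0.00427) and by 0.57 in clone A2 (0.0217). FCGRT, the heavy chain of the neonatal Fc receptor, which pairs with B2M, fell by 0.43 in clone A2 (0.00902), from a mean of 22.1 CPM in WT to 16.4 CPM. The remaining 12 of this list, MICA and MICB among them, passed in neither clone.

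The loading partners and folding factors (10 of 11 listed) gave 2 calls against WT, both in clone A2. CALR, the lectin chaperone calreticulin of the loading complex, fell by 0.26 (edgeR adjusted p = 0.0218), from a mean of 634 to 529.9 CPM. HSPA5, the general chaperone BiP, rose by 0.27 (0.00648), from 363 to 438 CPM. Of the immunoproteasome and its activator, 4 of 5 genes were listed, without PSMB8, and PSME1, a subunit of the PA28 activator, fell by 0.30 in clone A2 (0.0118). Of the 14 genes of the standard proteasome core, PSMA4, a subunit of the outer ring, fell by 0.35 in clone A1 of experiments 15 and 16 (0.00455) and by 0.37 in clone A2 (0.00142), and the other 13 passed in neither clone. Of 7 cytosolic peptidases, IDE, the insulin-degrading enzyme, fell by 0.37 in clone A2 (0.00303). It also fell by 0.24 in WT between the pairs of experiments (0.0396).

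Of the transcription regulators of class I, 21 of 22 were listed, without CIITA, and 1 passed against WT. NFYA, a subunit of the factor that binds CCAAT, fell by 0.22 in clone A2 (edgeR adjusted p = 0.0356) and by 0.26 in WT between the pairs (0.0169). The interferon pathway genes of this list, among them IRF1 and JAK2, gave no call against WT. Of the class II genes, which serve CD4+ T cells, 11 of 14 were listed, without CD74. IFI30, a lysosomal thiol reductase of antigen processing, fell by 1.21 in clone A1 of experiments 15 and 16 (0.000122) and by 1.01 in clone A2 (0.000208). HLA-DPA1 and HLA-DPB1, the 2 chains of HLA-DP, fell by 0.43 and 0.25 in clone A2 (0.0103 and 0.0426). HLA-DPA1 was lower in clone A2 than in clone A1 by 0.73 on the log2 scale (0.00036), with means of 14.2 and 23.5 CPM.

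Between WT of the 2 pairs of experiments, 13 of the 81 listed genes were called, 8 higher and 5 lower, beside 16.4% of all genes. The genes named here outside the rule were chosen after their values were seen. PDIA3 (0.22) and ERAP2 rose, as did PSMA6 (0.26), BLMH (0.27), LAP3 (0.29), IRF2 (0.49), IFNGR1 (0.31) and HLA-DOA (1.49), with edgeR adjusted p of 0.012 to 0.0496. THOP1 (−0.31), STAT2 (−0.32) and RFXANK (−0.28) fell along with IDE and NFYA (edgeR adjusted p of 0.0169 to 0.0396). HLA-DOA was also higher in clone A2 than in clone A1 (1.54, edgeR adjusted p = 0.0231), at means of 2.1 and 0.721 CPM. The change of the A1 effect between the pairs passed for 2 of the 81, PSMA4 (−0.45, 0.0182) and HLA-DPA1 (0.71, 0.0168), beside 2.5% of all genes.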

How the data were processed

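RNA from spheroids was made into stranded mRNA libraries and sequenced as paired reads by the authors, who used HISAT2 and the NCBI annotation of GRCh38 for alignment; the labels also name StringTie. The deposited file holds read counts, not normalized, for NCBI genes, from which the authors had removed genes with a count of 0 in a library (the lowest count is 1). The counting program and its strand setting are not given in the sources used here. The labels and the methods of the study name different RNA extraction kits. Of 13920 genes, 13885 matched a symbol in the RefSeq gene table.

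Counts were tested in R 4.3.3 with edgeR 4.0.16 (TMM, robust quasi-likelihood test) in 1 fit of 10 libraries and 5 groups, WT and clone A1 of experiments 10 and 11 and WT, clone A1 and clone A2 of experiments 15 and 16. The Benjamini-Hochberg adjustment ran over all genes (threshold 0.05), and log2 CPM used a prior count of 2. Intervals are 95% intervals of the fit. Alternatives were DESeq2 1.42.0, limma 3.58.1 (limma-trend), the experiment number as a block, RLE normalization, genes with a mean count of 10 or more, each pair of experiments alone and each library left out. The rule named all members, SAMHD1, up to 4 called genes per list and comparison against WT, and the 3 genes most like each member. Members and lists were chosen with earlier results of these data known. Transcript lengths came from GENCODE v44, positions and promoters from RefSeq (GRCh38.p14), and motifs were searched on both strands.

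On simulated data of experiments 15 and 16, clone A1 against WT (13920 genes), edgeR found 74 of 98 genes changed by 0.5 (log2) and 94 of 102 changed by 1, with 7 false calls. Apart from these changes, each simulated gene had the same mean in all libraries, without differences between experiments or clones. Changes smaller than 0.5 were not simulated. Raw reads and protein sequences were not used here. Genes that the rule names but the text does not print are not reported here.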

Additional observations from a re-analysis of the deposited data

Results flagged for a closer look

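B2M and NLRC5 each had 1 WT library apart from the other 3, as judged by its gap relative to the range. For B2M, WT of experiment 11 was lowest at 105.7 CPM, and its gap to the next library was 0.916 of the range of the 4. This level lay within the clone A1 values of 104 to 116 CPM. For NLRC5, the same library was highest at 2.35 CPM, with a gap of 0.844 of the range. In all, 18 groups of 4 libraries were checked, and chance sets 1 library apart in about 1 of 20 such groups.

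The effect of clone A1 on HLA-B differed between the 2 pairs of experiments by 0.48 on the log2 scale (edgeR adjusted p = 0.0182), from below WT in experiments 10 and 11 to above WT in experiments 15 and 16. Neither difference from WT passed by itself in the same fit (edgeR adjusted p = 0.282 and 0.0508). The call was lost without WT of experiment 15 or 16 or clone A1 of experiment 10, 11 or 15. SAMHD1 also differed between the A1 libraries of the pairs, and its part in the HLA-B value was not tested.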

How the results depend on the processing

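The numbers of members called were 0, 0, 1, 0, 1 and 1 in order for clone A1 (experiments 10 and 11), clone A1 and clone A2 (15 and 16) against WT, clone A2 against clone A1, the change of the A1 effect and WT between the pairs. DESeq2 and each pair of experiments alone gave 1 for clone A1 in experiments 15 and 16 (HLA-B) and 2 for clone A2 (HLA-B and HLA-C). Leaving out each library gave 0 to 3, 0 to 1, 1 to 2, 0, 0 to 3 and 0 to 2 members, with the highest counts without WT of experiment 10. Counts over all genes ranged in those fits from 7 to 1361 (27 with all libraries), 343 to 2000 (1147), 1020 to 3199 (2283), 268 to 959 (576), 88 to 1123 (348) and 820 to 3658 (2276). DESeq2 called 63 and 533 in place of 27 and 348, and the pairs alone 12 and 1834 in place of 27 and 1147. The causes were not tested.

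Deviations of libraries with the same experiment number were correlated at 0.0844 in experiments 10 and 11 and at 0.103 to 0.151 in 15 and 16. These values run over all genes, and with 2 libraries per group the deviations of the 2 experiments mirror each other. They therefore do not settle whether libraries that share a number are paired. With the number as a replicate block, 1, 2, 2, 1 and 2 members were called in the first 5 comparisons. The counts over all genes were 382, 2411, 3673, 1213 and 1247, each higher than without the block. Under this block HLA-B passed for clone A1 in experiments 10 and 11 (−0.24, edgeR adjusted p = 0.0165) and 15 and 16 (0.23, 0.00363) and for clone A2 against clone A1 (0.19, 0.0271), HLA-C for clone A2 (0.21, 0.00329) and the change of the A1 effect (0.32, 0.0064), and TAP2 for clone A1 in experiments 15 and 16 (−0.19, 0.0447). WT between the pairs is confounded with the block and was not fitted with it.

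Of 837 values of members under alternatives, 31 had another sign than the reported value, the largest at 0.2, and none of these was called. The change of the A1 effect on B2M was 0.004 with DESeq2, 0.004 with RLE normalization and 0.001 with a mean count of at least 10. The others came from leaving out 1 library. There the ranges for clone A1 in experiments 10 and 11 were −0.16 to 0.007 (HLA-E), −0.11 to 0.006 (B2M) and −0.79 to 0.015 (NLRC5). For clone A1 in 15 and 16 they were −0.12 to 0.011 (B2M), −0.14 to 0.1 (TAP1) and −0.44 to 0.027 (NLRC5), and for clone A2 −0.031 to 0.03 (TAP2). Between the clones they were −0.039 to 0.046 (HLA-E), −0.12 to 0.009 (TAPBP), −0.25 to 0.054 (ERAP1) and −0.18 to 0.29 (NLRC5), for the change of the A1 effect −0.11 to 0.058 (HLA-E), −0.067 to 0.061 (B2M) and −0.2 to 0.6 (NLRC5), and in WT between the pairs −0.002 to 0.12 (B2M), −0.066 to 0.13 (TAP1), −0.017 to 0.23 (TAPBP) and −0.71 to 0.093 (NLRC5).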
